A study of Homo sapiens with 4 samples.

Results

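The HOX genes and the antisense transcripts of their clusters were examined in Jurkat cells, an established line of human T-cell acute lymphoblastic leukaemia. The members were all rows whose gene name began with HOXA, HOXB, HOXC or HOXD, of any biotype, together with HOTAIRM1, HOTTIP and HOTAIR. They came to 41 of the 26733 rows, with 17 in the HOXA cluster, 10 in HOXB, 11 in HOXC and 3 in HOXD, and 28 of them were protein-coding and 13 antisense or other RNAs. HOX genes that had no row under this rule were not analysed here. One group held 2 libraries of cells treated with GNE987, labelled 25 nmol with no volume, and the other held 2 libraries of untreated cells, both taken at 24 h. GNE987 is a degrader that couples a binder of BET bromodomain proteins to a recruiter of the VHL ubiquitin ligase. The groups are of 1 cell line, and the labels do not say that the libraries came from separate cultures, so a p-value here reflects the spread between libraries alone, which may be technical.

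HOX genes encode homeodomain transcription factors that set positional identity along the body axis, and in blood they are most active in stem and progenitor cells. Genes with low numbers lie at the 3' end of each cluster and are switched on first in the embryo, and genes with high numbers lie at the 5' end. Their chromatin is held open by MLL complexes and closed by Polycomb complexes, antisense transcripts run between the genes, and raised HOXA expression marks a subset of T-cell leukaemias.

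HOX transcripts were scarce in every library. They made up 1380 and 1126 counts in the GNE987 libraries, of totals of 17024157 and 16041022, and 3492 and 2851 counts in the untreated libraries, of totals of 18938465 and 18441248. In CPM, the count relative to the TMM-scaled library size, the summed level was 90.6 and 81.6 with GNE987 and 156.8 and 140.8 in untreated cells. Of the 41 members, 26 passed the filter on low counts, which needed about 0.564 CPM in at least 2 libraries. With GNE987 5 of them were higher, 11 were lower and 10 did not pass an adjusted p of 0.05 (edgeR quasi-likelihood test, Benjamini-Hochberg over 15910 genes). Among all genes tested 71.6% passed, with 34.4% higher and 37.2% lower. With 1 GNE987 library left out, 1 member was higher (HOTAIRM1, whichever library it was), and the genes called higher in the whole table numbered 2062 of 15910 without replicate 1 and 2147 without replicate 2, against 5467 with all libraries. Many members entered the test through 1 group only. In untreated cells alone 8 of the 11 lower ones reached the filter (HOXA5, HOXA6, HOXA7, HOXA10, HOXA11, HOXA-AS3, HOXC11 and HOXD12). In GNE987 cells alone 3 of the 5 higher ones did (HOXB2, HOXB-AS1 and HOXC9). Such a choice favours members that differ, so their number carries no weight, and their p-values below are to be read with this limit. Another 5 members that met the filter in 1 group only did not pass the test. The filter was met in both groups by 10 members, of which 2 were higher (HOTAIRM1 and HOXC10), 3 were lower (HOXB7, HOXD8 and HOXD13) and 5 did not pass, HOXB3, HOXB4, HOXB13 and HOXC4 among them. In bulk RNA, fewer cells with a transcript and less transcript per cell cannot be told apart.

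**Figure D1:**
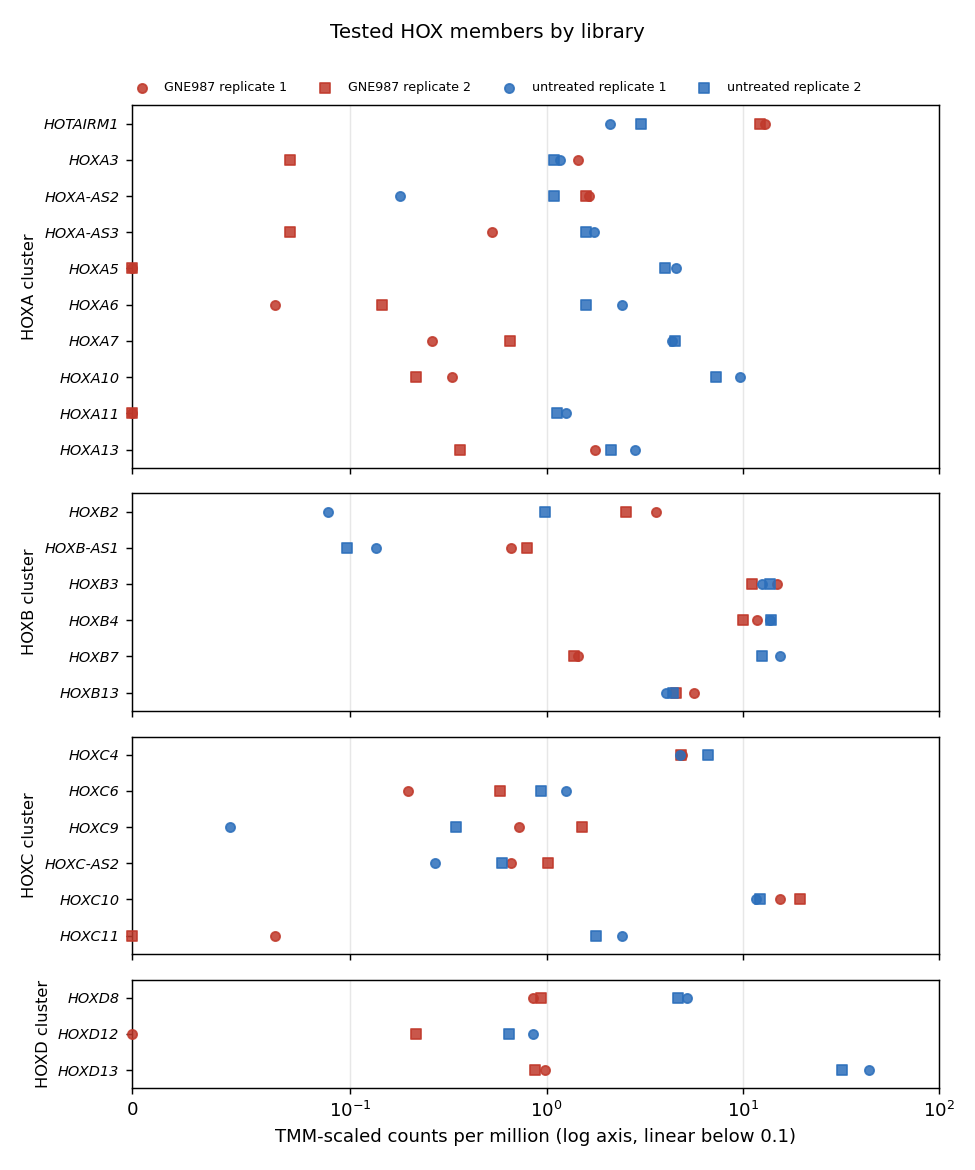
Levels of tested members in each library, by cluster and in order of position from the low-numbered end, in TMM-scaled CPM on a log axis that is linear below 0.1. Red points are the 2 GNE987 libraries and blue points the 2 untreated libraries; HOXD13 lies at 0.985 and 0.870 CPM in red and at 43.9 and 32.0 CPM in blue.

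The HOXD cluster had the largest difference of the 4 clusters. Its 3 members summed to 1.84 and 2.03 CPM with GNE987, against 50.0 and 37.3 CPM in untreated cells, a ratio 22.6-fold lower. HOXD13, which patterns the digits and the distal limb and lies at the 5' end of the HOXD genes, had 15 and 12 counts with GNE987 and 978 and 648 counts in untreated cells. Both GNE987 libraries lay far below both untreated ones. HOXD13 averaged 0.927 ± 0.0814 CPM with GNE987 and 38.0 ± 8.42 CPM in untreated cells (SD, n = 2 each), a log2 fold change of -5.34 ± 0.26 (SE) with an adjusted p of 0.000292 (edgeR). It accounted for 1.09% and 1.07% of HOX counts in the GNE987 libraries, and for 28.0% and 22.7% in the untreated libraries. Without HOXD13 the summed HOX level was 89.6 and 80.7 CPM with GNE987 and 112.9 and 108.8 CPM in untreated cells, so the groups still did not overlap. Such a separation was common. Both GNE987 libraries lay below both untreated ones in 46.6% of all genes tested and above them in 44.6%.

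HOXD8, a trunk-level gene and the lowest-numbered of the 3, had 13 and 13 counts with GNE987 and 116 and 95 in untreated cells. It fell by 2.46 ± 0.32 on the log2 scale (adjusted p = 0.0021). HOXD12, the neighbour of HOXD13 and also a limb gene, had 0 and 3 counts with GNE987 and 19 and 13 in untreated cells. The GNE987 libraries held fewer HOXD12 counts than the untreated ones, and its log2 fold change of -2.77 ± 0.97 was close to the threshold (adjusted p = 0.0458). Summed over libraries the untreated to GNE987 ratio of HOXD12 was 7.28, with an exact 95% counting interval of 2.28 to 37.2. HOXD12 lost its call without GNE987 replicate 1 (log2 fold change -1.75, adjusted p = 0.191) and without GNE987 replicate 2, which leaves 0 counts in its group (adjusted p = 0.0509). It also lost it with RLE (0.0503) and upper-quartile scaling (0.0562) and with DESeq2 (adjusted p = 0.162).

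None of these 3 genes shares exon bases with another annotated gene, so their counts do not depend on strand. HOXD13 lies on chromosome 2 from 176092891 to 176095938, HOXD12 from 176099730 to 176101193 and HOXD8 from 176129694 to 176132695, all on the plus strand (GRCh38, GENCODE release 29). The 150 bases before the RefSeq start of these 3 HOXD members are shown beside those of HOXC4, which did not pass the test, to let the sequences be compared (GRCh38.p14, plus strand for all 4). Capitals mark matches, each searched on both strands, to the TATA box (TATAAA), the E-box bound by MYC (CACGTG), the CCAAT box, the MEIS core (TGACAG) and a PBX-HOX composite (TGATNNAT).
HOXD13: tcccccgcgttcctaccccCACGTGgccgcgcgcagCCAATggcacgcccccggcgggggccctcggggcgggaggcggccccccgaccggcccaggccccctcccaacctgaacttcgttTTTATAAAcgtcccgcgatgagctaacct
HOXD12: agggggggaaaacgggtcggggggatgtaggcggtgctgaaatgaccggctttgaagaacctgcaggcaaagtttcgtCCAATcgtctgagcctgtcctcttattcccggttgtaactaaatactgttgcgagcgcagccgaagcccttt
HOXD8: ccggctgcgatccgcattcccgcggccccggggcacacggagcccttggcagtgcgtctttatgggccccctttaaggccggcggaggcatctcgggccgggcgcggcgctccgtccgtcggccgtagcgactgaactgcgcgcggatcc
HOXC4: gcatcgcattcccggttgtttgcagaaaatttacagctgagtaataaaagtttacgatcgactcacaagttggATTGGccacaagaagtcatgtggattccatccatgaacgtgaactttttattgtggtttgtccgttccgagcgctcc
The windows are chr2:176092571-176092720 for HOXD13, chr2:176099645-176099794 for HOXD12, chr2:176129555-176129704 for HOXD8 and chr12:54016738-54016887 for HOXC4. HOXD13 holds the E-box, the CCAAT box and the TATA box, the last matched on both strands at overlapping positions within 1 run of capitals. HOXD12 and HOXC4 hold the CCAAT box only, on the plus strand in HOXD12 and on the minus strand in HOXC4, and HOXD8 holds none of the 5. In windows of the same length before 35116 RefSeq starts, the E-box occurred in 4.6%, the CCAAT box in 23.5%, the TATA box in 6.7%, the MEIS core in 8.2% and the composite in 3.6%. The number of CG dinucleotides was 18 in HOXD13, 10 in HOXD12, 23 in HOXD8 and 8 in HOXC4, against a median of 7 over all windows (quartiles 2 and 15). A match is a description of these letters only, and 20 of the 41 members had a promoter entry.

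**Figure D2:**
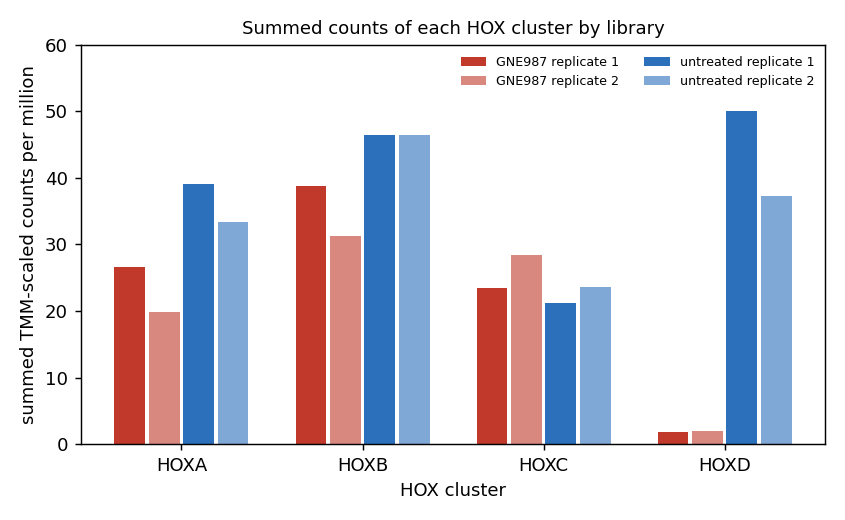
Summed TMM-scaled CPM of each HOX cluster, with 1 bar per library, the 2 GNE987 libraries in red and the 2 untreated libraries in blue. The HOXD bars stand at 1.84 and 2.03 with GNE987 against 50.0 and 37.3 in untreated cells, and the HOXC bars at 23.4 and 28.4 against 21.2 and 23.7.

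The summed level of the HOXA cluster was 26.6 and 19.9 CPM with GNE987 and 39.1 and 33.3 CPM in untreated cells, a log2 ratio of -0.64. Of its 11 tested members 6 were lower, from HOXA5 to HOXA11 along the cluster with HOXA-AS3 among them, 1 was higher (HOTAIRM1) and 4 did not pass. All 6 lower members met the filter in untreated cells alone, so this number carries no weight, and HOXA9, which lies between them, was not tested. The members span 114.3 kb of chromosome 7, from 27092993 to 27207259, with the protein-coding genes on the minus strand and the antisense RNAs on the plus strand.

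HOXA10, a posterior gene that is also active in blood progenitors, had 5 and 3 counts with GNE987 and 216 and 148 in untreated cells. It fell by 4.92 ± 0.39 on the log2 scale (adjusted p = 0.00049, edgeR), and the groups were far apart. HOXA7, a trunk-level member, had 4 and 9 counts with GNE987 and 97 and 91 in untreated cells, a log2 fold change of -3.27 ± 0.47 (adjusted p = 0.00277), which was -2.75 without GNE987 replicate 1 and -4.04 without replicate 2. HOXA6, its neighbour, had 1 and 2 counts with GNE987 and 54 and 32 in untreated cells, a summed untreated to GNE987 ratio of 19.6 with a counting interval of 6.48 to 96.8 (adjusted p = 0.00322). HOXA6 gave a log2 fold change of -4.19 over all libraries, -3.73 without GNE987 replicate 1 and -4.80 without replicate 2.

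HOXA5, known for its part in lung development and in myeloid differentiation, had 0 and 0 counts with GNE987 and 102 and 81 in untreated cells. Taking 3 counts per library as the most that a count of 0 allows, it was at least 20.7-fold lower (adjusted p = 0.00126). HOXA11, a gene of the forearm, kidney and uterus, likewise had 0 and 0 counts with GNE987 and 28 and 23 in untreated cells, at least 5.77-fold lower (adjusted p = 0.00476). Both transcripts were thus undetected in the 2 treated libraries at this depth. Intervals and floors cover counting error only, since reads carry no molecular identifiers.

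HOXA3, a gene of the pharyngeal arches, had 22 and 1 counts with GNE987 and 26 and 22 in untreated cells (adjusted p = 0.625). HOXA13, the last gene at the 5' end and a limb and urogenital factor, had 27 and 5 counts with GNE987 and 63 and 43 in untreated cells (adjusted p = 0.16). In both HOXA3 and HOXA13 GNE987 replicate 2 was the lowest library. Without GNE987 replicate 1 they passed, with log2 fold changes of -3.84 (adjusted p = 0.0481) and -2.75 (adjusted p = 0.0406), and HOXA13 also passed without untreated replicate 2 (-1.31, adjusted p = 0.00413).

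**Figure D3:**
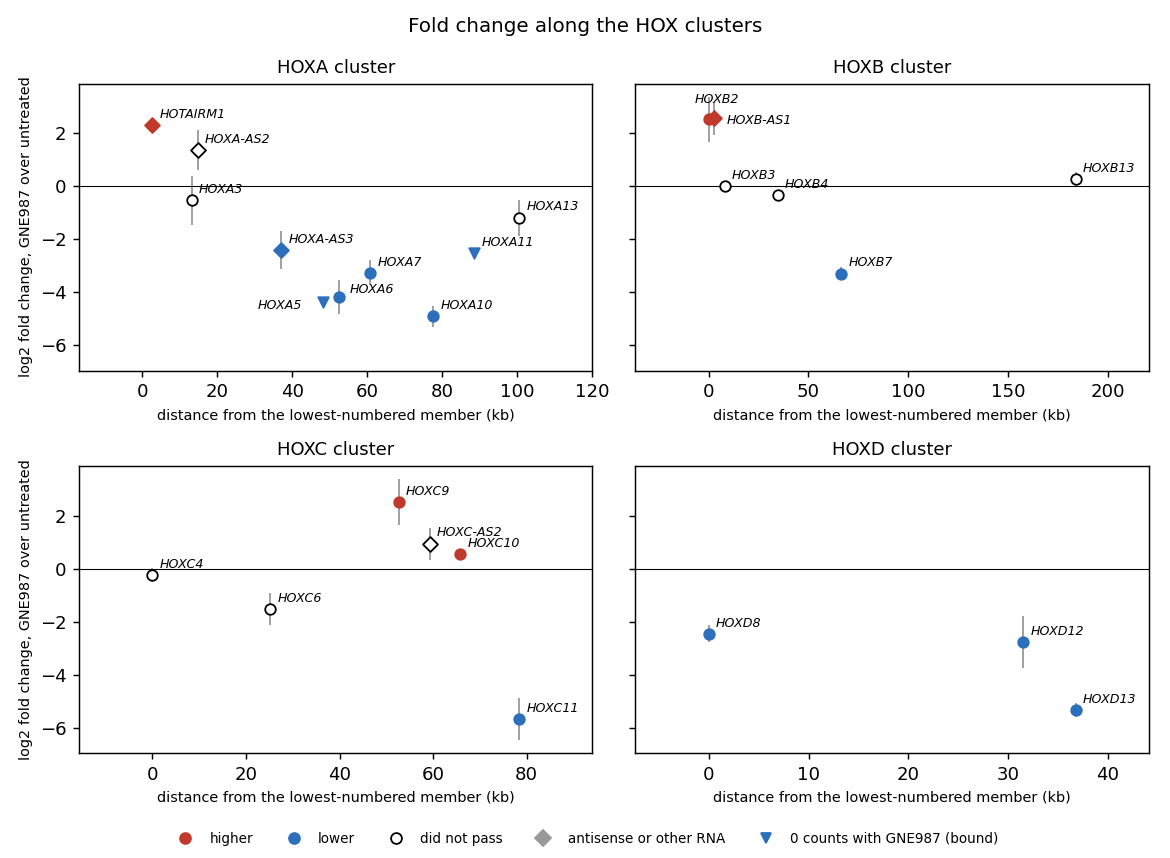
Log2 fold change of tested members, GNE987 over untreated, against its distance in kb from the lowest-numbered member of its cluster, with bars of 1 SE. Circles are protein-coding genes and diamonds antisense or other RNAs, red higher, blue lower and open not past the test; the triangles of HOXA5 and HOXA11 mark the bound, at least 20.7-fold and 5.77-fold lower.

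Members were also set out by their number across the 4 clusters, where 34.4% of all genes tested were higher and 37.2% lower. Of 8 protein-coding members numbered 1 to 4, 6 were tested, with 1 higher (HOXB2) and 0 lower. Of 8 members numbered 5 to 8, 6 were tested, with 0 higher and 5 lower (HOXA5, HOXA6, HOXA7, HOXB7 and HOXD8). Of 12 members numbered 9 to 13, 9 were tested, with 2 higher (HOXC9 and HOXC10) and 5 lower (HOXA10, HOXA11, HOXC11, HOXD12 and HOXD13). Summed CPM of members 1 to 4 was 43.8 and 32.8 with GNE987 and 40.1 and 41.6 in untreated cells, so these groups overlapped. Members 5 to 8 summed to 3.48 and 3.91 CPM with GNE987 and 33.4 and 28.5 CPM in untreated cells. Members 9 to 13 summed to 25.4 and 27.3 CPM with GNE987 and 77.5 and 63.2 CPM in untreated cells. HOXD13 alone held 43.9 and 32.0 CPM of that untreated sum, and 0.985 and 0.870 CPM with GNE987, so it made most of this difference. Without GNE987 replicate 1, and likewise without replicate 2, 0 protein-coding members of any position were higher, in settings that called 2062 and 2147 of all 15910 genes higher. Of the 10 lower protein-coding members, HOXB7, HOXD8 and HOXD13 met the filter in both groups, and of the 3 higher ones HOXC10 did. The counts by position are therefore descriptions and carry no weight, and no test set one position against another.

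The HOXB cluster, 188.3 kb on chromosome 17 from 48540894 to 48729178, had 10 members and 6 tested. It summed to 38.7 and 31.3 CPM with GNE987 and 46.5 and 46.5 CPM in untreated cells, a log2 ratio of -0.41. HOXB7, a trunk-level gene often raised in tumours, had 22 and 19 counts with GNE987 and 344 and 253 in untreated cells. It fell by 3.30 ± 0.25 on the log2 scale (adjusted p = 0.000435, edgeR), and it shares no exon bases with another gene.

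HOXB4, known for expanding blood stem cells, had 179 and 139 counts with GNE987 and 307 and 280 in untreated cells. On the CPM scale this was 11.8 and 10.1 against 13.8 and 13.8, a log2 fold change of -0.34 ± 0.17 that did not pass (adjusted p = 0.12). With library size alone as the scaling it passed as lower (-0.71, adjusted p = 0.0194). HOXB3, its neighbour in blood progenitors and the hindbrain, had 228 and 154 counts with GNE987 and 279 and 279 in untreated cells (log2 fold change -0.01 ± 0.20, adjusted p = 0.973). HOXB13, a prostate and tail-end factor far from the rest of the cluster, had 86 and 63 counts with GNE987 and 90 and 89 in untreated cells (0.28 ± 0.26, adjusted p = 0.367). HOXB3 overlapped between the groups, while HOXB13 was slightly above in both GNE987 libraries on the CPM scale.

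HOXB2, a hindbrain gene at the 3' end, had 55 and 35 counts with GNE987 and 2 and 20 in untreated cells. Its GNE987 libraries were above both untreated ones, with untreated replicate 2 between untreated replicate 1 and the GNE987 libraries. HOXC9 and HOXA-AS2 had the same order on the CPM scale, and untreated replicate 2 also held more of the myeloid markers (29.8 CPM, against 0.584 CPM in untreated replicate 1), whose part in these values was not tested. The log2 fold change of HOXB2 was 2.53 ± 0.85 (adjusted p = 0.0406), and it was 1.64 without untreated replicate 1 and 5.05 without untreated replicate 2. HOXB2 did not pass without GNE987 replicate 1 (2.24, adjusted p = 0.202) or replicate 2 (2.75, adjusted p = 0.135).

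The HOXC cluster, 117.3 kb on chromosome 12 from 53938765 to 54056030, summed to 23.4 and 28.4 CPM with GNE987 and 21.2 and 23.7 CPM in untreated cells. Its log2 ratio of 0.21 turned to -0.17 with library size alone. HOXC10, a gene of lumbar motor neurons and the hindlimb, carried most of it, with 235 and 269 counts with GNE987 and 259 and 247 in untreated cells. That is 15.4 and 19.5 CPM with GNE987 against 11.6 and 12.2 CPM, a log2 fold change of 0.55 ± 0.18 (adjusted p = 0.0356). The raw counts of HOXC10 overlapped, and with library size alone the change was 0.18 and did not pass (adjusted p = 0.445). It was 0.71 without GNE987 replicate 1 (adjusted p = 0.0612) and 0.37 without replicate 2 (adjusted p = 0.215).

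HOXC11, which lies just 5' of HOXC10, had 1 and 0 counts with GNE987 and 54 and 36 in untreated cells. Its summed untreated to GNE987 ratio was 61.4, with a counting interval of 10.8 to 2453 that a single count leaves wide, and it passed as lower (adjusted p = 0.0026, edgeR). The fitted log2 fold change of HOXC11 was -5.67, with -8.31 without GNE987 replicate 1 and -4.87 without replicate 2. HOXC9, a thoracic gene, had 11 and 21 counts with GNE987 and 1 and 7 in untreated cells, higher by 2.51 ± 0.87 (adjusted p = 0.0447). Without a GNE987 library HOXC9 did not pass (2.95 with adjusted p = 0.111 without replicate 1, and 1.88 with adjusted p = 0.294 without replicate 2). It was 1.66 without untreated replicate 1 and 4.47 without untreated replicate 2. HOXC9 also missed the threshold with library size alone (adjusted p = 0.0517), with no filter (0.0593) and with DESeq2 (0.0829).

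HOXC4, known from activated lymphocytes, had 75 and 67 counts with GNE987 and 107 and 135 in untreated cells, and its groups overlapped on the CPM scale (log2 fold change -0.23 ± 0.27, adjusted p = 0.473). HOXC6 had 3 and 8 counts with GNE987 and 28 and 19 in untreated cells, a log2 fold change of -1.51 ± 0.61 (adjusted p = 0.0705). HOXC6 passed as lower with library size alone (adjusted p = 0.03) and without untreated replicate 2 (-1.65, adjusted p = 0.0119). It shares 484 exon bases with HOXC4, so part of its reads cannot be assigned by position.

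Among the 13 antisense and other RNAs, 5 were tested, with 2 higher and 1 lower, where 34.4% of all genes tested were higher and 37.2% lower. HOTAIRM1, an antisense RNA at the 3' end of the cluster known from myeloid cells, had 198 and 169 counts with GNE987 and 47 and 61 in untreated cells. It rose by 2.30 ± 0.26 on the log2 scale (adjusted p = 0.00136, edgeR), with 12.6 ± 0.531 CPM under GNE987 and 2.56 ± 0.638 CPM in untreated cells (SD, n = 2 each). Both GNE987 libraries were above both untreated ones, as in 44.6% of all genes tested. Without any 1 library the log2 fold change of HOTAIRM1 stayed between 2.06 and 2.63.

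Some myeloid marker genes were also higher with GNE987, and their spread between the untreated libraries was not alike. In untreated replicates 1 and 2 CD14 had 0.135 and 4.49 CPM and CSF1R 0.0898 and 0.148 CPM. HOTAIRM1 had 2.11 and 3.01 CPM there. Of 7 such markers 5 were tested and 3 were higher (CSF1R, LYZ and CD14), where 34.4% of all genes tested were higher. The list summed to 141.9 and 146.6 CPM with GNE987, against 0.584 and 29.8 CPM in the untreated libraries 1 and 2. MPO and ITGAM, which did not pass, were near 0 in untreated replicate 1 and higher in untreated replicate 2, with 2 and 314 counts of MPO. The median log2 fold change of the 5 was 3.13 and 3.21 without GNE987 replicates 1 and 2. It was 2.27 and 7.52 without untreated replicates 1 and 2. With a GNE987 library left out fewer genes passed in the whole table, so the calls of these 5 are not compared there. CD33 had 0 counts in both GNE987 libraries and SPI1, the master regulator of the myeloid line, had 2 and 1 counts with GNE987 and 0 and 0 in untreated cells. The part of other cell types in the rise of HOTAIRM1 was not tested.

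HOXA-AS3, which overlaps exons of HOXA6 and HOXA7 on the opposite strand, had 8 and 1 counts with GNE987 and 39 and 32 in untreated cells. It fell by 2.41 ± 0.70 on the log2 scale (adjusted p = 0.0261), with -4.40 without GNE987 replicate 1 and -1.65 without replicate 2, where it did not pass (adjusted p = 0.0955). The kit does not mark the strand. HOXA-AS3 shares 1507 exon bases with HOXA7, 62.5% of the exon bases of that gene, and 505 with HOXA6, 39.3% of them. The fall of HOXA-AS3 can therefore not be told apart from the falls of HOXA6 and HOXA7. Reads in the 717 exon bases shared by HOXA11 and HOXA11-AS, and in the 608 shared by HOXA10 and HOXA10-AS, cannot be assigned either; both antisense RNAs were below the filter. HOXA5, HOXB7, HOXC11 and the 3 HOXD genes share none.

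HOXB-AS1 had 10 and 11 counts with GNE987 and 3 and 2 in untreated cells, higher by 2.56 ± 0.63 (adjusted p = 0.0153). HOXB-AS1 shares 374 exon bases with HOXB3 and 87 with HOXB2, and it did not pass without GNE987 replicate 1 (adjusted p = 0.112) or replicate 2 (adjusted p = 0.145). HOXA-AS2 had 25 and 22 counts with GNE987 and 4 and 22 in untreated cells (log2 fold change 1.37 ± 0.76, adjusted p = 0.155), and passed without untreated replicate 2 (3.17, adjusted p = 2.9e-05). HOXC-AS2 had 10 and 14 counts with GNE987 and 6 and 12 in untreated cells (0.95 ± 0.60, adjusted p = 0.201), and passed without untreated replicate 2 (1.65, adjusted p = 0.0342). Both were above the untreated libraries on the CPM scale, by little in replicate 2.

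**Figure D4:**
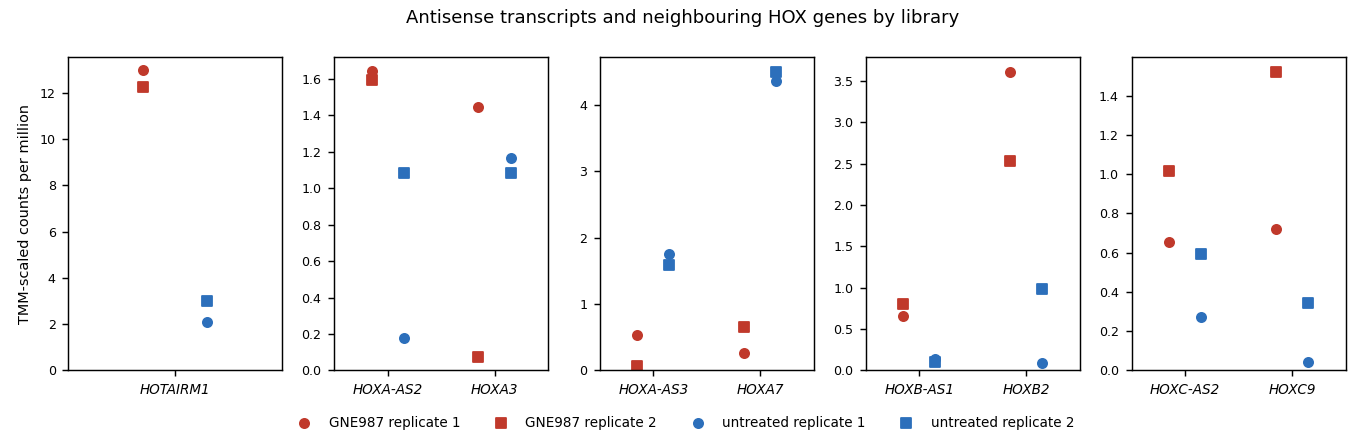
Levels of 5 antisense or other RNAs, with a neighbouring HOX gene for 4 of them, in TMM-scaled CPM with a separate axis from 0 per panel; red points are the GNE987 libraries and blue points the untreated ones. HOTAIRM1 averages 12.6 CPM in red and 2.56 CPM in blue.

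The 15 members below the filter had at most 13 counts in any library. Their sum was 45 and 33 counts with GNE987 and 60 and 63 in untreated cells. HOXA9, a leading leukaemia gene of the MLL-rearranged subtype, had 0 and 0 counts with GNE987 and 6 and 2 in untreated cells. HOTTIP, an RNA that brings MLL complexes to the 5' HOXA genes, had 3 and 0 counts with GNE987 and 0 and 0 in untreated cells, and HOTAIR, an RNA of the HOXC cluster linked to Polycomb, had 1 and 0 with GNE987 and 8 and 2 in untreated cells. HOXC-AS1 had 8 and 10 counts with GNE987 and 3 and 0 in untreated cells, and HOXB-AS2 had 3 and 8 with GNE987 and 0 and 1 in untreated cells. At this depth 3 counts equal 0.197 and 0.217 CPM in the GNE987 libraries and 0.135 and 0.148 CPM in the untreated ones.

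Levels can be set between genes only per length, for which the authors' deposited FPKM values were used. HOXD13 had the highest mean FPKM of the members in untreated cells, and HOTAIRM1 the highest with GNE987. HOXD13 was at 0.409 FPKM with GNE987, place 14 of the 41, and at 16.8 FPKM in untreated cells. HOTAIRM1 was at 8.33 FPKM with GNE987 and at 1.69 FPKM in untreated cells, where it held place 12. HOXC10 was at 7.40 FPKM with GNE987 and at 5.04 FPKM in untreated cells, and HOXB7 at 0.912 FPKM with GNE987 and at 9.04 FPKM in untreated cells.

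In the authors' deposited table of their own comparison, 2 members passed an adjusted p of 0.05 as higher and 9 as lower, and all 11 were also called here in the same direction. The 5 members called here and not there were HOXB-AS1, HOXC9, HOXC10, HOXA-AS3 and HOXD12, with adjusted p-values in the authors' deposited table of 0.0964, 0.095, 0.0855, 0.0502 and 0.148 in that order.

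Genes that act with or on HOX clusters were described by their counts, with a median log2 fold change of -0.03 over all genes tested. Of those genes 34.4% were higher and 37.2% lower. Of 6 tested HOX cofactors, which bind DNA beside HOX proteins, 1 was higher (PKNOX1, 1.30 ± 0.16) and 2 were lower (PBX2, -0.73 ± 0.12, and MEIS2, -1.95 ± 0.33), with a median of -0.44. PBX4 did not pass (0.54 ± 0.22, adjusted p = 0.0753). Of 15 genes of the MLL complex and its elongation partners, 3 were higher and 8 lower, with a median of -0.77. DPY30, a core subunit, fell by 2.30 ± 0.25, and MLLT10, a DOT1L cofactor, fell by 1.74 ± 0.18. PSIP1, the chromatin reader that tethers MLL, fell by 1.08 ± 0.11, and KMT2B, the second MLL methyltransferase, fell by 1.27 ± 0.14.

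Of 26 Polycomb genes, 6 were higher and 14 lower, with a median of -0.67. BMI1 fell by 1.66 ± 0.13 and RING1, the ubiquitin ligase of the same complex, fell by 1.74 ± 0.14. CBX6 fell by 1.72 ± 0.14 and PHF19, an accessory factor of the methylating complex, fell by 1.38 ± 0.12. Without GNE987 replicate 1 the Polycomb median was -0.55, and without replicate 2 it was -0.65. With 1 GNE987 library left out fewer genes passed in the whole table, so calls of the lists are not compared there. Both the MLL list and the Polycomb list held more lower than higher members. Among all genes tested 34.4% were higher and 37.2% lower. The summed level of the Polycomb list was 2544 and 2515 CPM with GNE987 and 1727 and 1881 CPM in untreated cells.

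Of 6 tested activators of HOX genes, 4 were higher and 1 was lower, with a median of 0.66. Higher calls made up 34.4% of all genes tested and lower calls 37.2%. RARG, a retinoic acid receptor, fell by 2.00 ± 0.25. KAT7, a histone acetyltransferase, rose by 0.86 ± 0.12, and the histone H3K27 demethylases KDM6B and KDM6A rose by 1.08 ± 0.20 and 0.81 ± 0.15. With library size alone 2 of the 6 were higher and 1 was lower, with a median of 0.28. Higher calls also fell in the whole table there, to 25.8% of all genes tested. Without GNE987 replicate 1 the median of the 6 activators was 0.70, and without replicate 2 it was 0.59. CDX2, an activator of posterior HOX genes, had 0 and 2 counts with GNE987 and 0 and 0 in untreated cells.

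Of 8 boundary factors, which fold and insulate the clusters, 1 was higher (YY1, 0.98 ± 0.16) and 4 were lower, with a median of -0.32. Higher calls made up 34.4% of all genes tested and lower calls 37.2%. Of the 5 cohesin genes on the list 3 fell, SMC3 with a log2 fold change of -1.70 ± 0.15, STAG2 with -1.68 ± 0.15 and STAG1 with -2.47 ± 0.23. The core subunits RAD21 (-0.11, adjusted p = 0.452) and SMC1A (-0.01, adjusted p = 0.941), named after their values were seen, did not pass. Of 7 tested homeobox genes outside the clusters with a part in T-cell leukaemia, 1 was higher and 5 lower, with a median of -0.87. In either direction 71.6% of all genes tested passed. The log2 fold change was -2.79 ± 0.29 for TLX2, -1.10 ± 0.14 for SATB1, a chromatin organiser of T cells, -0.71 ± 0.15 for ZEB1 and 2.90 ± 0.55 for HHEX, a progenitor factor. Without GNE987 replicate 1 the median of these homeobox genes was -0.79, and without replicate 2 it was -1.03.

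The genes listed as flanking the clusters did not move as 1 group, and their distances from the clusters were not measured. Higher calls made up 34.4% of all genes tested and lower calls 37.2%. On the HOXD list 1 of 5 was higher (NFE2L2, 1.33 ± 0.21) and 2 were lower, MTX2 with -2.88 ± 0.18 and HNRNPA3 with -1.46 ± 0.15. ATP5MC3 did not pass (0.22 ± 0.12, adjusted p = 0.164, edgeR). LNPK, named after its values were seen, did not pass either (0.14 ± 0.11, adjusted p = 0.316, edgeR). MTX2, a mitochondrial import gene, had 92 and 97 counts with GNE987 and 1188 and 862 in untreated cells. On the HOXA list 2 of 5 were higher (TAX1BP1, 0.69 ± 0.11, and CBX3, 0.72 ± 0.14) and 2 were lower (SNX10, -1.39 ± 0.15, and HIBADH, -0.65 ± 0.19). The median of this list was -0.34, with -0.58 without GNE987 replicate 1 and 0.22 without replicate 2. On the HOXB list 2 of 7 were higher and 3 lower, with ATP5MC1 at -1.55 ± 0.13, CBX1 at -1.22 ± 0.14, SKAP1 at -1.30 ± 0.17 and UBE2Z at 1.05 ± 0.18. The median of this list was -0.27, with -0.23 without GNE987 replicate 1 and -0.31 without replicate 2. On the HOXC list 2 of 7 were higher and 4 lower, with SMUG1 at -2.45 ± 0.19, COPZ1 at -1.33 ± 0.15, HNRNPA1 at -1.12 ± 0.15 and ATP5MC2 at -0.95 ± 0.16. The median of this list was -0.95, with -0.86 without GNE987 replicate 1 and -1.05 without replicate 2.

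The T-cell label was checked against its markers. Of 9 T-cell markers 1 was higher and 6 were lower with GNE987, where 34.4% of all genes tested were higher and 37.2% lower. The list summed to 1548 and 1704 CPM with GNE987 and 2733 and 2578 CPM in untreated cells, so T-cell transcripts were present in all 4 libraries. That sum does not show each marker to be present. CD2 had 4 and 8 counts with GNE987 and 176 and 126 in untreated cells, a log2 fold change of -4.06 ± 0.44. The log2 fold change was -3.83 ± 0.17 for LCK, -2.59 ± 0.16 for CD3G, -2.47 ± 0.14 for CD247 and -1.64 ± 0.14 for PTPRC. CD3D was lower by less (-0.40 ± 0.12), and CD7 was the higher marker (0.55 ± 0.14, adjusted p = 0.0185, edgeR). CD3E (0.43 ± 0.17, adjusted p = 0.0688, edgeR) and TRAC (-0.23 ± 0.14, adjusted p = 0.179, edgeR) did not pass. Of the markers of B cells 1 of 1 tested was higher (CD79A), and of erythroid and megakaryocyte markers 1 of 1 (ITGA2B). Of fibroblast markers 1 of 2 was higher (COL1A1) and of epithelial markers 1 of 1 was lower (ESRP1). The chi-square per degree of freedom between the counts of a pair was 3.60 over 25069 genes for the GNE987 libraries and 24.0 over 24392 genes for the untreated libraries, so neither pair was 1 library deposited again.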

How the data were processed

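Total RNA was extracted with TRIzol and made into libraries of polyadenylated RNA with the Illumina TruSeq RNA kit, which does not mark strand, per the labels. HISAT2 2.2.0 and genome build hg38 are listed in the submitters' processing notes. The counting tool, with its annotation and use of strand, was not given in the sources used here. Raw counts, a normalized signal (not used), FPKM, and the authors' own log2 fold change with a p-value and adjusted p-value made up the deposited table.

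Tests used the counts only, with edgeR 4.0.16 in R 4.3.3: filterByExpr (minimum count 10, minimum total 15) kept 15910 of 26733 rows, TMM scaling, and the quasi-likelihood F test with 2 residual degrees of freedom, adjusted over all genes tested with a threshold of 0.05. The standard error is the size of the log2 fold change divided by the square root of F. The script was tested on simulated data. Members and lists were chosen with earlier results of these data known. Named list genes are the up to 4 with the smallest p. This rule was not kept for cell type markers, CDX2 and the genes named after their values were seen. Identifiers of all 41 members matched GENCODE release 29, and promoter sequences are from RefSeq. The values of 1 tested member are not reported here. Alternatives were RLE and upper-quartile scaling, library size alone, 2 other filters, DESeq2 1.42.0, robust estimation, the replicate block and each library left out.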

Additional observations from a re-analysis of the deposited data

How the results depend on the processing

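The count of higher members, 5, was 3 with library size alone, 3 with no filter, 2 with a filter of 10 CPM in 2 libraries, 3 with DESeq2 and 1 with the replicate block, and 1 to 7 with a library left out. The count of lower members, 11, was 2 with the 10 CPM filter, which tests 6 members, 9 with DESeq2 and with the replicate block, 10 with RLE and with upper-quartile scaling, and 9 to 13 with a library left out. Under DESeq2 HOXA-AS3 (adjusted p = 0.0633), HOXB-AS1 (0.0587), HOXC9 (0.0829) and HOXD12 (0.162) no longer passed. Library size alone moved the log2 ratio of summed CPM to -1.01 in HOXA, -0.78 in HOXB, -0.17 in HOXC (reversed) and -4.88 in HOXD, and the median of all genes to -0.41. Upper-quartile scaling gave -0.21 in HOXB and 0.41 in HOXC. With a library left out the ratios ran from -0.87 to -0.45 in HOXA, -0.57 to -0.26 in HOXB, 0.06 to 0.34 in HOXC and -4.64 to -4.27 in HOXD. The cause of these shifts was not tested, apart from fewer members tested or fewer samples. Same-numbered libraries did not deviate together (r = -0.01 over 15910 genes). With 2 libraries per group this cannot decide whether same-numbered libraries shared a culture or day. Under the replicate block HOXA-AS3 (adjusted p = 0.052, edgeR), HOXB2 (0.0705), HOXB-AS1 (0.0668), HOXC9 (0.0504), HOXC10 (0.0558) and HOXD12 (0.116) no longer passed. A lone sample is assumed to vary like the other group. Depth limits the members with few counts, where 3 counts are 0.135 to 0.217 CPM.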
